A study of Capra hircus with 9 samples.

Results

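Zinc transporter genes encode the membrane proteins that move zinc into, out of and within cells. They are described here by 10 genes, 5 of the SLC30 family and 5 of the SLC39 family, taken by symbol from the 23499 genes of the deposited table. All 10 passed the filter on low values, as did 14701 genes in all. The samples are mammary gland tissue of 9 healthy goats of the Laoshan dairy breed from China, with 1 RNA-seq library from each goat. The goats were on average 4 years old and of parity 3. They comprise 3 goats in late lactation (LL, 240 days postpartum), 3 in the dry period (DP, 300 days postpartum) and 3 in late gestation (LG, 140 days after mating). Libraries are called LL1 to LL3, DP1 to DP3 and LG1 to LG3, and the p-values measure the spread between the libraries of these goats.

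Proteins of the SLC30 family (ZnT) lower the zinc of the cytosol, by exporting it across the plasma membrane or by loading it into vesicles and the Golgi. Proteins of the SLC39 family (ZIP) work in the other direction and bring zinc into the cytosol from outside the cell or from organelles. The mammary gland passes zinc from blood to milk through its secretory epithelial cells, and inherited defects of SLC30A2 in women and of Slc30a4 in mice give milk that is poor in zinc.

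No unit is named in the table. Its values were taken to be FPKM, fragments per unit of gene length and of sequencing depth, the measure of the study. The summed FPKM of a library ran from 940676 to 1157015 in LL libraries, from 601250.2 to 616268 in DP libraries and from 733277 to 768157 in LG libraries. The 10 most abundant genes held 80.6% to 86.0% of that sum in LL and 53.6% to 58.5% in DP and LG. Values were therefore divided by a median-ratio scaling factor for each library, and the quotient is called scaled FPKM. The factors ran from 0.498 to 0.605 for LL, from 1.44 to 1.53 for DP and from 1.198 to 1.31 for LG. Without this step the median log2 fold change over all genes was 1.09 in DP vs LL, 0.93 in LG vs LL and -0.18 in LG vs DP. Log2 fold changes are on the log2(scaled FPKM + 1) scale, which understates the change of low genes. They were tested with limma, with p-values adjusted over the 14701 genes. Calls needed an adjusted p under 0.05 together with a change of 1 or more, up or down, on the log2 scale. The reads behind each value are unknown, so no counting error is given.

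In DP vs LL, 5 of the 10 zinc transporter genes were called lower and 0 higher after scaling, against 8.79% and 13.8% of all genes tested. Without scaling 3 of the 10 were called lower and 4 higher, against 2.51% and 54.3% of all genes. The 5 lower genes were SLC30A2, SLC30A4, SLC39A7, SLC39A8 and SLC39A14. Tissue in bulk holds many cell types, and fewer cells of a type and less RNA per cell cannot be told apart in these values. The libraries of the 2 stages did not overlap for 6 of the 10 genes, against 65.9% of all genes, which is close to that background. An adjusted p under 0.05 from limma was reached by 7 of the 10 and by 56.9% of all genes, again close to the background. The median log2 fold change of the 10 was -0.82, beside 0.004 over all genes. Both medians are after scaling, which brings the second near 0. Without it the median over all genes was 1.09, and SLC30A7, SLC39A1 and SLC39A7 turned above 0 (0.79, 1.08 and 0.12). SLC30A2, SLC30A4, SLC39A8 and SLC39A14 stayed below 0.

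In LG vs LL, 4 of the 10 genes were called lower and 0 higher after scaling, against 6.61% and 10.7% of all genes. Without scaling 1 of the 10 was called lower and 4 higher, against 2.35% and 45.6% of all genes. The 4 lower genes were SLC30A2, SLC30A4, SLC39A8 and SLC39A14, and the calls of SLC30A2 and SLC39A14 were lost when LL1, LL2, LL3, LG1 or LG2 was left out, which brought the count to 2. The stages did not overlap for 4 of the 10 genes, against 61.1% of all genes, and the median log2 fold change was -0.12, beside 0.02 over all genes. Without scaling SLC30A7, SLC39A1 and SLC39A7 turned above 0 in LG vs LL too (1.01, 1.07 and 0.90). In LG vs DP, 3 of the 10 genes were called higher and 0 lower, against 6.37% and 6.88% of all genes. These were SLC30A2, SLC30A4 and SLC39A8, and the count was 1 without LG3 and 2 with no scaling or with quantile normalization. The stages did not overlap for 5 of the 10, against 47.9% of all genes, and the median log2 fold change was 0.43, beside 0.008. The 3 comparisons share libraries, so their counts are not separate evidence. SLC30A4, SLC39A8 and SLC39A14 stand in a run of 1387 genes at the end of the table, of which 67.6% were called in DP vs LL, against 17.9% of the other genes tested.

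**Figure D1:**
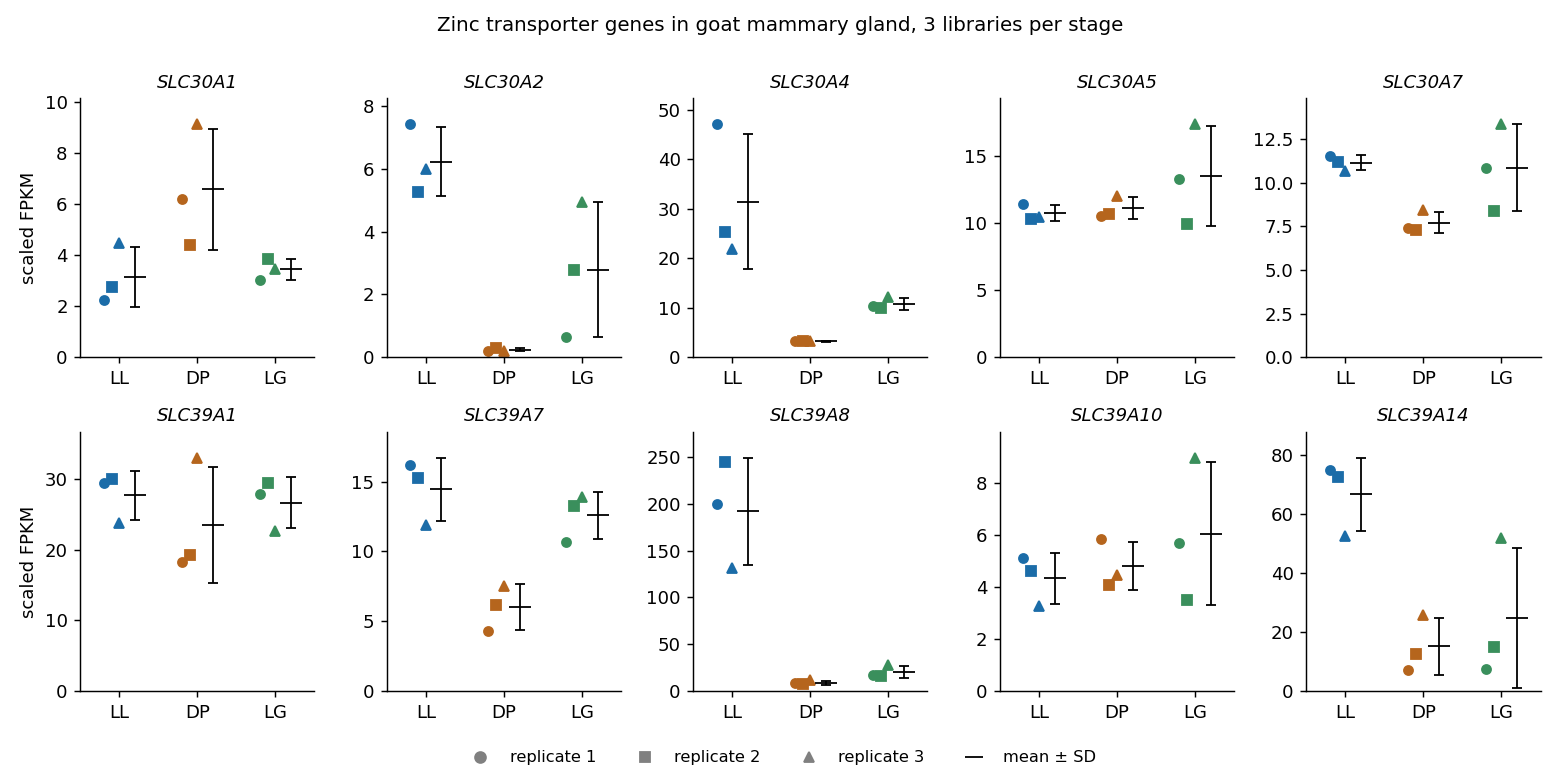
Scaled FPKM (vertical axis, linear from 0, own range in each panel) of the 10 zinc transporter genes in LL, DP and LG. Symbols mark the 3 libraries of a stage and the black bar with whiskers is the mean ± SD; SLC39A8 sits between 131 and 245 in LL and at or below 28.0 in the other libraries.

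Among the genes of zinc export, SLC30A1 (gene ID 102187972, chromosome 16, 70526359 to 70534097) encodes the zinc exporter of the plasma membrane. It had 2.23, 2.73 and 4.46 scaled FPKM in LL1 to LL3, 6.19, 4.4 and 9.12 in DP1 to DP3 and 3.01, 3.84 and 3.46 in LG1 to LG3. DP3 was the highest library, LL3 lay just above DP2, and LG lay within the range of LL. The log2 fold change was 0.86 in DP vs LL (standard error 0.25, adjusted p = 0.0147 from limma) and -0.73 in LG vs DP (adjusted p = 0.0452), both under the size needed for a call. In DP vs LL it was called higher without scaling (1.93), with a pseudocount of 0.1 (1.04), without LL3 (1.08) and without DP2 (1.07). LG vs LL gave 0.13 (adjusted p = 0.679), and -0.037 without LL1.

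SLC30A2 (gene ID 102181736, chromosome 2, 8900312 to 8909570) encodes the transporter that loads zinc into secretory vesicles of mammary epithelial cells. It had 7.43, 5.28 and 6.01 scaled FPKM in LL1 to LL3, 0.21, 0.30 and 0.20 in DP1 to DP3, and 0.64, 2.77 and 4.96 in LG1 to LG3. All LL libraries were high and all DP libraries were near 0. LG lay between them without overlap, with LG1 closer to DP and LG3 closer to LL. The mean level was 6.24 ± 1.096 scaled FPKM for LL, 0.236 ± 0.0538 for DP and 2.79 ± 2.16 for LG (± SD of 3 libraries). It fell by 2.54 (log2) in DP vs LL (standard error 0.37, adjusted p = 0.00041 from limma), a call kept in all 19 alternatives, from -4.23 to -1.71.

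In LG vs DP, SLC30A2 rose by 1.43 on the log2 scale (standard error 0.37, adjusted p = 0.0154 from limma), and without LG3 the value was 0.99 and the call was lost. In LG vs LL it was -1.11 (adjusted p = 0.0319). That call was lost without scaling (-0.18), without a filter on low values, and without LL1 (-1.03), LL2 (-1.24), LL3 (-1.16), LG1 (-0.60) or LG2 (-1.19). In FPKM as deposited, SLC30A2 had 3.70, 2.92 and 3.64 in LL1 to LL3 and 0.77, 3.42 and 6.52 in LG1 to LG3. On that scale LG1 lay below and LG3 above all LL libraries.

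SLC30A4 (gene ID 102184065, chromosome 10, 38182899 to 38213975) encodes a transporter of vesicles and the gene altered in the lethal milk mouse. It had 47.1, 25.3 and 21.9 scaled FPKM in LL1 to LL3, 3.32, 3.21 and 3.18 in DP1 to DP3, and 10.3, 9.91 and 12.1 in LG1 to LG3. After scaling the 3 stages stood apart in the order LL, LG, DP, and DP libraries differed among themselves far less than LL libraries, of which LL1 was the highest. In FPKM as deposited, SLC30A4 had 23.4, 14.0 and 13.2 in LL1 to LL3 and 12.4, 12.2 and 15.9 in LG1 to LG3. On that scale LG3 lay above LL2 and LL3. The means were 31.4 ± 13.7 for LL, 3.24 ± 0.0750 for DP and 10.8 ± 1.14 for LG (scaled FPKM, SD, n = 3).

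SLC30A4 fell by 2.86 (log2) in DP vs LL (standard error 0.24, adjusted p = 1.64e-05 from limma) and rose by 1.47 in LG vs DP (adjusted p = 0.00165). Both calls were kept in all 19 alternatives. It fell by 1.39 in LG vs LL (adjusted p = 0.0014), a call lost only without scaling, where the value was -0.27. Its 3' part overlaps the gene LOC108636986 on the other strand, whose mean was 1.46 FPKM for LL, 1.76 for DP and 2.33 for LG as deposited. Whether the reads were counted by strand is not given in the sources used here.

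The ratio of SLC30A4 to SLC30A2 within a library does not depend on the scaling. It was 6.33, 4.80 and 3.64 in LL1 to LL3, 15.9, 10.8 and 15.8 in DP1 to DP3, and 16.1, 3.58 and 2.43 in LG1 to LG3. SLC30A4 had the higher FPKM in all 9 libraries. LG1 lay just above the DP libraries, LG2 and LG3 lay below all LL libraries, and the ratio was not tested.

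SLC30A5 (gene ID 102177751, chromosome 20, 10533383 to 10567698) and SLC30A7 (gene ID 102174352, chromosome 3, 78094049 to 78192851) encode transporters of the Golgi and early secretory pathway, which supply zinc to secreted enzymes such as alkaline phosphatase. SLC30A5 had 11.4, 10.3 and 10.4 scaled FPKM in LL1 to LL3, 10.6, 10.7 and 12.1 in DP1 to DP3, and 13.3, 9.90 and 17.4 in LG1 to LG3. The stages overlapped, and LG2 was the lowest and LG3 the highest of all libraries. Its log2 fold change was 0.05 in DP vs LL (95% interval -0.36 to 0.45), 0.28 in LG vs LL and 0.23 in LG vs DP, with adjusted p of 0.842, 0.228 and 0.344 from limma. Without DP3 the first was -0.0085. Without scaling the first 2 were 1.33 and 1.34, both called higher.

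SLC30A7 had 11.6, 11.2 and 10.7 scaled FPKM in LL1 to LL3, 7.42, 7.28 and 8.42 in DP1 to DP3, and 10.9, 8.37 and 13.3 in LG1 to LG3. DP libraries lay below LL libraries without overlap, while LG2 lay within DP. The log2 fold change in DP vs LL was -0.48 (standard error 0.16, adjusted p = 0.0271 from limma), under the size needed for a call, and was 0.79 without scaling. LG vs LL gave -0.05, with 0.10 without LG2 and 1.01 without scaling. The ratio of SLC30A7 to SLC30A5 within a library, free of the scaling, was 1.01, 1.08 and 1.03 in LL1 to LL3, 0.703, 0.680 and 0.699 in DP1 to DP3, and 0.815, 0.846 and 0.768 in LG1 to LG3. This ratio set the 3 stages apart without overlap and was not tested.

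Among the genes of zinc uptake and release, SLC39A8 (gene ID 102182487, chromosome 6, 22728536 to 22811009) encodes a plasma membrane carrier of zinc, manganese and other divalent metals. It had 200.04, 245 and 131 scaled FPKM in LL1 to LL3, 7.94, 7.40 and 11.2 in DP1 to DP3, and 17.5, 15.5 and 28.0 in LG1 to LG3. The 3 stages did not overlap, with LL far above both others. The mean was 192 ± 57.02 scaled FPKM for LL, 8.84 ± 2.05 for DP and 20.3 ± 6.72 for LG (± SD of 3 libraries). By its mean it stood at percentile 98.5 of the genes tested in LL, 73.1 in DP and 88.7 in LG.

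SLC39A8 fell by 4.27 (log2) in DP vs LL (standard error 0.28, adjusted p = 4.91e-06 from limma) and by 3.18 in LG vs LL (adjusted p = 3.08e-05). Both calls were kept in all 19 alternatives, the first from -4.54 to -2.91 and the second from -3.44 to -2.02. In LG vs DP it rose by 1.09 (adjusted p = 0.0149), which is close to the size needed for a call. That call was lost without scaling (0.89), with quantile normalization (0.99), without DP2 (0.99) and without LG3 (0.84).

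SLC39A14 (gene ID 102174119, chromosome 8, 69335236 to 69386159) encodes a related carrier of zinc, iron and manganese that inflammation induces in liver. It had 75.1, 72.7 and 52.6 scaled FPKM in LL1 to LL3, 6.94, 12.6 and 25.8 in DP1 to DP3, and 7.53, 14.8 and 52.05 in LG1 to LG3. After scaling LL libraries were the highest, but LG3 came within 1 scaled FPKM of LL3, and DP and LG overlapped. In FPKM as deposited, SLC39A14 had 37.4, 40.2 and 31.9 in LL1 to LL3, 10.6, 18.2 and 37.1 in DP1 to DP3 and 9.02, 18.2 and 68.4 in LG1 to LG3. On that scale DP3 lay within LL and LG3 above every LL library. The means were 66.8 ± 12.3 for LL, 15.1 ± 9.65 for DP and 24.8 ± 23.9 for LG (scaled FPKM, SD, n = 3), so the SD in LG was nearly as large as its mean.

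SLC39A14 fell by 2.23 (log2) in DP vs LL (standard error 0.62, adjusted p = 0.0124 from limma), a call lost only without scaling, where the value was -0.87. In LG vs LL it was -1.80 (adjusted p = 0.0348). That call was lost without scaling (-0.65), with quantile normalization (-1.48), without a filter on low values, and without LL1 (-1.72), LL2 (-1.75), LL3 (-1.98), LG1 (-1.21) or LG2 (-1.65). LG vs DP gave 0.43 (adjusted p = 0.62), and -0.30 without LG3.

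The ratio of SLC39A8 to SLC39A14 within a library was 2.66, 3.37 and 2.498 in LL1 to LL3, 1.14, 0.586 and 0.434 in DP1 to DP3, and 2.32, 1.05 and 0.538 in LG1 to LG3. SLC39A8 was the more abundant of the pair in all LL libraries, and LL did not overlap with DP or LG. DP and LG each held libraries on both sides of 1. SLC39A8 made up 53.2%, 62.4% and 52.0% of the summed FPKM of 9 zinc transporter genes, SLC39A1 left out, in LL1 to LL3. Its share was 15.1%, 13.2% and 13.7% in DP1 to DP3 and 21.97%, 19.0% and 18.2% in LG1 to LG3. No library of 1 stage had a share within the range of another stage, and shares of FPKM within a library do not depend on the scaling.

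SLC39A7 (gene ID 102182003, chromosome 23, 41291830 to 41295973) encodes a transporter that releases zinc from the endoplasmic reticulum and Golgi. It had 16.2, 15.2 and 11.9 scaled FPKM in LL1 to LL3, 4.32, 6.19 and 7.55 in DP1 to DP3, and 10.7, 13.2 and 13.9 in LG1 to LG3. DP libraries were low, and LL and LG overlapped above them. In FPKM as deposited, the values were 8.07, 8.43 and 7.22 in LL1 to LL3, 6.60, 8.92 and 10.9 in DP1 to DP3 and 12.8, 16.3 and 18.3 in LG1 to LG3. On that scale DP and LL overlapped and LG was the highest.

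SLC39A7 fell by 1.16 (log2) in DP vs LL (standard error 0.20, adjusted p = 0.000996 from limma), but the value was 0.12 without scaling, and without DP1 it was -0.96 and not called. LG vs LL gave -0.18 (adjusted p = 0.466) and 0.90 without scaling. LG vs DP gave 0.97 (adjusted p = 0.00458), just under the size needed for a call, and it was called with a pseudocount of 0.1 (1.08), with the libraries of the 2 stages alone (1.02), and without DP2 (1.0034), DP3 (1.13) or LG1 (1.08).

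SLC39A10 (gene ID 102191745, chromosome 2, 51612010 to 51722855) encodes a zinc importer of the plasma membrane. It had 5.12, 4.61 and 3.25 scaled FPKM in LL1 to LL3, 5.84, 4.09 and 4.47 in DP1 to DP3, and 5.70, 3.50 and 8.97 in LG1 to LG3. The 3 stages overlapped, and LG3 was the highest library. Log2 fold changes were 0.13 in DP vs LL, 0.35 in LG vs LL and 0.22 in LG vs DP, with adjusted p of 0.70, 0.307 and 0.556 from limma. The first was -0.043 without LL3 and the last was -0.069 without LG3. Without scaling the first 2 were 1.25 and 1.28, both called higher. One end of SLC39A10 overlaps DNAH7 on the other strand, which had a mean of 1.497 FPKM for LL, 2.73 for DP and 2.18 for LG as deposited.

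SLC39A1 (gene ID 100861316, chromosome 3, 103672835 to 103682341) encodes a widely expressed zinc importer of the plasma membrane. It had 14.7, 16.6 and 14.4 FPKM as deposited in LL1 to LL3, 27.9, 27.8 and 47.5 in DP1 to DP3, and 33.3, 36.4 and 29.8 in LG1 to LG3. The neighbouring gene JTB on the same strand (103685754 to 103688387) had 13.4, 15.02 and 12.6 in LL1 to LL3, 26.6, 26.01 and 45.7 in DP1 to DP3 and 31.5, 34.9 and 28.5 in LG1 to LG3. SLC39A1 exceeded JTB by 1.29, 1.59 and 1.79 FPKM in LL1 to LL3, 1.29, 1.79 and 1.79 in DP1 to DP3 and 1.79, 1.49 and 1.29 in LG1 to LG3. These amounts follow a fixed pattern over the libraries that links 1510 genes of the table to a neighbour, so the values of SLC39A1 are not a separate measurement. Its log2 fold changes were -0.27, -0.06 and 0.22 in the 3 comparisons and were not called. They were 1.08, 1.07 and -0.011 without scaling and 0.15, 0.14 and -0.0049 with quantile normalization, and LG vs LL was 0.053 without LG3. None of the other 9 zinc transporter genes was linked in this way.

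**Figure D2:**
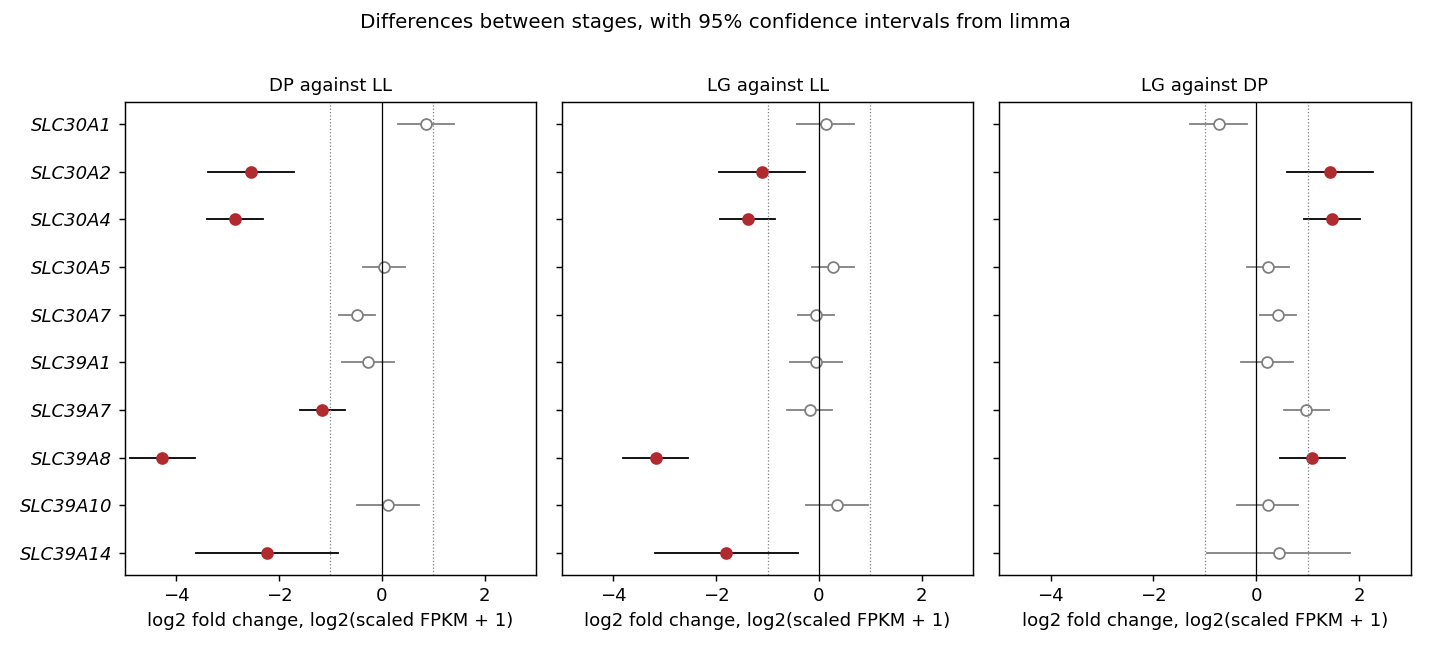
Log2 fold change on the log2(scaled FPKM + 1) scale (horizontal axis) of the 10 zinc transporter genes in the 3 comparisons, with 95% confidence intervals from limma; filled red points were called, open points were not, and dotted lines mark the size needed for a call. In DP vs LL the 5 called genes lie between -4.27 and -1.16 after scaling, and without scaling SLC39A7 lies at 0.12.

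By mean scaled FPKM, the order in LL was SLC39A8, SLC39A14, SLC30A4, SLC39A1, SLC39A7, SLC30A7, SLC30A5, SLC30A2, SLC39A10 and SLC30A1. SLC30A7 and SLC30A5, at 11.1 ± 0.434 and 10.7 ± 0.597 (SD, n = 3), did not differ beyond their spread there, nor did SLC39A10 and SLC30A1. SLC30A4 stood before SLC39A1 through LL1 alone, since SLC39A1 had 29.43, 30.03 and 23.72 scaled FPKM and was the higher of the pair in LL2 and LL3. In DP, SLC39A14 at 15.1 ± 9.65, SLC30A5 at 11.1 ± 0.824, SLC39A8 at 8.84 ± 2.05 and SLC30A7 at 7.71 ± 0.621 followed SLC39A1, and each of these 5 overlapped with the next. SLC30A2 was the lowest of the 10 in DP, at percentile 0.796 of the genes tested. In LG, SLC39A14 at 24.8 ± 23.9 and SLC39A8 at 20.3 ± 6.72 came before SLC30A5 at 13.5 ± 3.74 and SLC39A7 at 12.6 ± 1.70. SLC39A1 stood first, and each of these 5 overlapped with the next. The ranks of SLC39A1 in all 3 stages rest on values that are not a separate measurement from JTB. LG3 held the highest LG value of 8 of the 10 genes, the exceptions being SLC30A1 and SLC39A1.

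The other genes of these families comprise 15 in the table, of which 10 were tested. In DP vs LL, 3 of the 10 were called lower and 0 higher, against 8.79% and 13.8% of all genes. In LG vs LL 1 was lower and 0 higher, against 6.61% and 10.7% of all genes. In LG vs DP 1 was higher and 0 lower, against 6.37% and 6.88%, so the 1 call in each was near the background. Without scaling 2 were called higher (SLC39A6 and SLC39A13) and 0 lower in DP vs LL, against 54.3% and 2.51% of all genes. In LG vs LL 1 was then higher (SLC30A6, 1.02) and 0 lower, against 45.6% and 2.35%, so both counts of higher genes lay below the background. In LG vs DP 1 was then higher and 2 lower, against 4.86% and 10.7%. SLC39A13 had 1.28 in DP vs LL and -1.09 in LG vs DP without scaling. A pseudocount of 0.1 gave 2 lower in LG vs LL, and in LG vs DP 1 was lower without DP1 or without LG3. A filter at 2 FPKM left 8 of these genes to test and gave 0 lower in LG vs LL, as SLC39A12 did not pass it. SLC39A9, a zinc transporter of the Golgi, had 19.9, 24.3 and 15.6 scaled FPKM in LL1 to LL3, 6.76, 7.17 and 6.67 in DP1 to DP3 and 18.0, 15.01 and 19.8 in LG1 to LG3. Only DP was low. It fell by 1.39 (log2) in DP vs LL (adjusted p = 0.000143 from limma; -0.09 without scaling) and rose by 1.23 in LG vs DP (adjusted p = 0.00068).

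SLC39A12 had 4.26, 3.58 and 3.32 scaled FPKM in LL1 to LL3, 0.67, 1.08 and 1.06 in DP1 to DP3, and 1.33, 1.01 and 0.80 in LG1 to LG3, with LL above both other stages. It fell by 1.29 (log2) in DP vs LL and by 1.21 in LG vs LL (adjusted p = 8.06e-05 and 0.000162 from limma), and both calls were lost without scaling (-0.37 and -0.41). SLC39A11 fell by 1.16 in DP vs LL (adjusted p = 0.000998), with 0.083 without scaling and -0.9988, not called, without LL2. SLC39A6, an importer named LIV-1 and induced by estrogen in breast cancer cells, had 5.08, 4.18 and 4.26 scaled FPKM in LL libraries, 9.61, 9.66 and 8.01 in DP libraries and 4.04, 3.72 and 6.16 in LG libraries. DP was the high stage, with a log2 fold change of 0.87 vs LL, under the size needed for a call, and 2.04, called, without scaling. SLC30A8 and SLC30A10 were listed at 0 in all libraries, and SLC30A3, SLC39A2 and SLC39A4 did not pass the filter.

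Of the genes of zinc sensing and buffering, MTF1, MT3 and MT4 were in the table under these symbols, and no symbol of a metallothionein 1 or 2 gene was. MTF1 encodes the transcription factor that senses zinc and drives SLC30A1 and metallothionein genes. It had 0.44, 0.49 and 0.18 scaled FPKM in LL1 to LL3, 1.99, 1.66 and 1.90 in DP1 to DP3, and 1.98, 2.37 and 2.63 in LG1 to LG3. LL was low and DP and LG overlapped. MTF1 rose by 1.06 (log2) in DP vs LL (adjusted p = 0.000159 from limma) and by 1.28 in LG vs LL (adjusted p = 7.55e-05). The first call was lost with quantile normalization (0.63), without LL3 (0.98) and without DP1 (0.9979). SLC30A1, with 0.86 and 0.13 in the same comparisons, was called in neither. MT3, a metallothionein best known from brain, had at most 0.13 scaled FPKM in LL and 0.79, 1.55 and 0.77 in DP, and its log2 fold change of 0.83 in DP vs LL was under the size needed for a call. At this low level the pseudocount matters, and MT3 was called with a pseudocount of 0.1 (2.26) and without scaling (1.21).

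The 6 markers of secretory epithelium, led by CSN2, were all called lower in DP vs LL and in LG vs LL, and 2 of them, CSN1S1 and FASN, are among the linked genes. Their summed scaled FPKM was 452488, 408320.5 and 279583 in LL1 to LL3, 124, 97.8 and 106 in DP1 to DP3, and 5868, 7707 and 6376 in LG1 to LG3. This sum had the order LL, LG, DP, as did SLC30A2, SLC30A4 and SLC39A8, without overlap after scaling. By mean scaled FPKM, SLC39A14, SLC39A7, SLC30A7 and SLC39A1 had this order too, with overlap between stages. The 6 markers of luminal epithelium, led by ELF5, summed to 1017, 1106 and 819 in LL1 to LL3, 269, 522 and 334 in DP1 to DP3 and 780.45, 733 and 891 in LG1 to LG3. Their mean sum also had the order LL, LG, DP, at 981, 801 and 375, with LL and LG overlapping. Of these 6, 1 was called lower in DP vs LL, ELF5. EPCAM had 51.7, 67.3 and 41.8 in LL1 to LL3 and 38.8, 35.6 and 21.6 in DP1 to DP3, and CDH1 25.2, 26.7 and 24.7 and then 17.4, 23.0 and 14.6, so both were lower in DP without overlap. KRT8 had 80.8, 67.1 and 78.4 in LL libraries and 69.9, 154 and 70.7 in DP libraries, and KRT8, KRT18 and KRT19 overlapped between these stages.

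Per 1000 FPKM of the luminal sum, SLC39A8 was on average 7.49 times as high in LL as in DP and 7.71 times as high in LL as in LG. The same ratios were 9.94 and 1.91 for SLC30A2, 3.42 and 2.38 for SLC30A4 and 1.60 and 2.31 for SLC39A14. The 5 genes that were not called had lower means in LL than in both other stages, with 0.172 and 0.778 for SLC30A1, 0.307 and 0.595 for SLC39A10, 0.347 and 0.665 for SLC30A5, 0.418 and 0.839 for SLC39A1 and 0.517 and 0.856 for SLC30A7. LL and LG libraries overlapped on this measure for SLC30A1, SLC39A10, SLC39A1 and SLC30A7. SLC39A7 had 0.877 and 0.935, with 1.06 for the first without DP3 and 1.01 for the second without LG2, so its direction rests on 1 library. On this measure SLC39A14 had 73.9, 65.7 and 64.2 in LL1 to LL3, 25.8, 24.1 and 77.1 in DP1 to DP3 and 9.65, 20.2 and 58.4 in LG1 to LG3. DP3 lay above every LL library, and the ratios of SLC39A14 were 2.72 without DP3 and 4.56 without LG3. With ELF5 left out of the sum, a choice made after the values were seen, LL over DP was 17.7 for SLC39A8, 23.2 for SLC30A2, 8.25 for SLC30A4, 3.80 for SLC39A14 and 2.06 for SLC39A7. LL over LG moved less, to 8.69, 2.15, 2.74, 2.62 and 1.05 for the same genes. Without ELF5, SLC39A14 had 6.38 for LL over DP without DP3 and 5.13 for LL over LG without LG3, and the 1.05 of SLC39A7 was 0.923 without LL1 and 0.997 without LG1. For the 5 genes not called, LL over DP without ELF5 was 0.382 for SLC30A1, 0.726 for SLC39A10, 0.807 for SLC30A5, 0.979 for SLC39A1 and 1.1996 for SLC30A7, and LL over LG was 0.671 to 0.946. With a library also left out, SLC39A1 lay on either side of 1 in both ratios, from 0.797 to 1.26 and from 0.828 to 1.02. The size of the ratios of LL over DP therefore rests on which luminal genes are summed, and for SLC39A7 and SLC30A7 the direction does too.

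The 6 fibroblast markers, led by COL3A1, summed to 212, 226 and 324 scaled FPKM in LL1 to LL3, 502, 906 and 2392 in DP1 to DP3 and 521, 954 and 659.6 in LG1 to LG3, and 5 of 6 were called higher in DP vs LL. In LG these markers did not move alike, with 2 of 6 called higher vs LL and 2 lower vs DP. PDGFRA had 4.39, 4.68 and 3.55 in LG1 to LG3, below LL1 to LL3 at 7.19, 6.29 and 10.36. DCN had 56.08, 69.82 and 68.55 in LG1 to LG3 and 187.22, 322.88 and 353.86 in DP1 to DP3. DP3 had the highest fibroblast sum of all libraries, and without it the mean for DP was 704 in place of 1267, just below the 712 of LG. DP3 also held the highest DP value of 7 of the 10 zinc transporter genes, the exceptions being SLC30A2, SLC30A4 and SLC39A10. The 4 T cell markers, led by CD2, summed to 5.24, 6.07 and 5.90 in LL1 to LL3, 50.6, 21.99 and 15.9 in DP1 to DP3 and 17.4, 18.9 and 12.4 in LG1 to LG3, and all 4 were called higher in DP vs LL. Their mean for DP was 29.5, and 18.96 without DP1. The 5 macrophage markers in the table, led by CSF1R, had a mean sum of 43.5 for LL, 87.8 for DP and 29.7 for LG. The part of these cell types in the levels of the zinc transporter genes was not tested.

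Basal and myoepithelial markers, led by KRT5, had a mean sum of 199.7 scaled FPKM for LL, 301 for DP and 254 for LG. DP1 to DP3 had 134, 443 and 326, and without DP2 the mean for DP was 229.6, below LG. Endothelial markers, led by PECAM1, had 115, 144 and 78.4. KRT5, KRT14 and PECAM1 are among the linked genes, so these sums are not fully separate measurements. Neutrophil markers, led by S100A9, had 14.7, 20.1 and 7.39, but 11.2 in place of 20.1 without DP1 and 10.6 in place of 14.7 without LL1, so the order of LL and DP is not settled. Of these 4 markers, 1 was called higher and 2 lower in LG vs LL, and 1 higher and 1 lower in LG vs DP. CSF3R did not follow the sum, with 4.56, 3.31 and 3.06 in LG1 to LG3 and at most 0.42 in LL and 1.33 in DP. Adipocyte markers had 3.15, 9.06 and 1.67, with 21.2 in DP1 alone and a DP mean of 3.01 without it. ADIPOQ was the most abundant of them in DP1, at 12.64. In every other library CIDEC was, with 2.15, 2.48 and 3.09 in LL1 to LL3. B and plasma cell markers had 513, 101 and 16.8, nearly all of it JCHAIN, a plasma cell gene, with 832, 491 and 189 in LL1 to LL3 and 106, 135 and 37.6 in DP1 to DP3. The B cell genes CD79A, CD79B and MS4A1 did not follow it and were highest in DP1, at 2.15, 4.28 and 5.03, with at most 0.78 in any other library. None of the markers in the table was at 0 in every library.

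Over the 9 libraries, Pearson's r on the scaled log2 scale ran from 0.733 (SLC39A7 with SLC39A14) to 0.933 over the 10 pairs of the 5 called genes, and SLC30A7, which was not called, reached 0.813 with SLC39A7. The value was 0.920 between SLC30A2 and SLC30A4, 0.933 between SLC30A4 and SLC39A8, 0.872 between SLC30A2 and SLC39A8, and 0.850 between SLC39A8 and SLC39A14. With the same 5 genes, SLC30A1 had -0.80 to -0.39, SLC30A5 -0.12 to 0.20, SLC39A10 -0.13 to 0.02 and SLC39A1 0.29 to 0.62. The libraries fall into 3 stages, so these values mostly carry the order of the stages, and no p is given. The 5 called genes were taken for being lower in DP vs LL in the same values, so high values among them follow in part from that choice. Pearson's r was also ranked over the tested genes that are not named by a LOC identifier. Among these, the genes most like SLC30A4 were SH3YL1 (0.991), CUX1 (0.991) and ITGA6 (0.986). The genes most like SLC39A8 were BCAP31 (0.991), EMC3 (0.991) and CMTM6 (0.991). For SLC30A2 they were PRICKLE4 (0.995), TOMM6 (0.994) and GOLGA3 (0.982), of which PRICKLE4 and TOMM6 are among the linked genes. For SLC39A7 they were SNF8 (0.991), ANKZF1 (0.991) and STK16 (0.983), the last 2 also linked, and for SLC39A14 they were TM9SF4 (0.981), ITSN1 (0.978) and WDR83 (0.973).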

How the data were processed

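Libraries were made with a TruSeq kit from mammary tissue of 9 goats. The submitters' processing notes name FastQC, Trimmomatic, HISAT2, SAMtools and HTSeq, with no versions. Versions of these tools, apart from HTSeq, are stated in the study's methods. The values that the authors deposited, 1 per gene and library, were read as FPKM, and the study's methods name StringTie for transcripts. How the values per gene were made with these tools is not given in the sources used here. Coordinates are those of the table, which names no build. Values were divided by median-ratio factors from 15905 genes, 1 was added and log2 taken. Genes that reached 0.5 FPKM in 3 or more libraries were fitted in limma 3.58.1 (R 4.3.3; lmFit, contrasts.fit, eBayes with trend), with 9 libraries in one fit, no covariates and Benjamini-Hochberg adjustment, after a test on simulated data. Other values came from Python 3.11.15 (numpy 2.4.6, pandas 2.3.3) and were drawn with matplotlib 3.10.9.

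The members and lists were chosen with earlier results of these data known. The genes named are the 10 members, 15 other family members, MTF1 and metallothionein genes by symbol, marker genes of 10 cell types, and for each called member the 3 genes with the highest Pearson correlation that are not linked to it. Genes named by a LOC identifier were left out of that ranking. JTB, the overlapping genes and the sum without ELF5 were chosen after the values were seen. Linked genes were searched among 15945 genes and their 8 neighbours on either side, 122854 pairs on the same or opposite strands. Only pairs on the same strand could be linked, with a residual of at most 1% of the range. Alternatives were other scaling (none, quantile, upper quartile), a pseudocount of 0.1, no filter or a filter at 2 FPKM, the libraries of the 2 stages alone, a replicate block, no trend, no linked genes, and each library left out in turn. Sequence motifs were not searched.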

Additional observations from a re-analysis of the deposited data

How the results depend on the processing

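Without scaling, 8348 genes were called in DP vs LL (7979 higher, 369 lower) where scaled values called 3321 (2029 and 1292), 7043 in LG vs LL (6698 and 345) where scaled values called 2544 (1572 and 972), and 2292 in LG vs DP (715 and 1577) where scaled values called 1948 (937 and 1011). A pseudocount of 0.1 called 4483 genes in DP vs LL, 3912 in LG vs LL (2359 and 1553) and 2781 in LG vs DP. Without a filter, 2 zinc transporter genes were called in LG vs LL. With each library left out in turn, 3075 to 3422 genes and 4 to 6 zinc transporter genes were called in DP vs LL, 2400.0 to 2576 and 2 to 4 in LG vs LL, and 1738 to 2004 and 1 to 4 in LG vs DP. The cause was not tested.

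Without scaling the direction turned in DP vs LL for SLC30A6 (0.87), SLC30A7 (0.79), SLC39A1 (1.08), SLC39A7 (0.12), SLC30A9 (0.76), SLC39A3 (0.42), SLC39A5 (0.51), SLC39A11 (0.083) and TMEM163 (0.37). It turned in LG vs LL for SLC30A7 (1.01), SLC39A1 (1.07), SLC39A7 (0.90), SLC30A9 (0.64), SLC39A3 (0.25), SLC39A5 (0.47), SLC39A9 (0.95), SLC39A11 (0.69) and SLC39A13 (0.18), and in LG vs DP for SLC39A1 (-0.011), SLC30A9 (-0.13), SLC39A3 (-0.16), SLC39A5 (-0.047) and SLC39A12 (-0.044). With quantile normalization SLC39A1 turned in all 3 comparisons (0.15, 0.14 and -0.0049), SLC39A6 in LG vs LL (-0.040) and SLC30A9 in LG vs DP (-0.039). Upper quartile scaling turned SLC39A6 in LG vs LL (-0.016) and SLC39A3 in LG vs DP (-0.03). With 1 library left out, SLC30A5 in DP vs LL ran from -0.0085 (without DP3) to 0.080, SLC39A10 from -0.043 (without LL3) to 0.23 and SLC39A13 from -0.26 (without DP3) to 0.25. In LG vs LL, SLC30A1 ran from -0.037 (without LL1) to 0.35, SLC30A7 from -0.20 to 0.10 (without LG2), SLC39A1 from -0.17 to 0.053 (without LG3), SLC30A6 from -0.047 (without LL3) to 0.20 and SLC39A6 from -0.17 (without LG3) to 0.13. In LG vs DP, SLC39A10 ran from -0.069 to 0.50 and SLC39A14 from -0.30 to 1.02, both lowest without LG3, as was SLC30A9, from -0.0077 to 0.26. SLC39A3 ran from -0.047 to 0.069 and SLC39A12 from -0.021 to 0.16, both lowest without DP1. Of the other results of the 10 genes, 270 with another setting and 244 with a library left out kept direction and call.

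The replicate numbers of the labels did not pair the libraries, which come from different goats. Same-numbered libraries had correlations of their deviations of -0.11 to 0.20, and 5 of 9 correlated best with their own number. The replicate block called 3340 genes in DP vs LL, 2564 in LG vs LL and 1986 in LG vs DP, with 5, 4 and 3 zinc transporter genes. Depth per gene is unknown, so it sets no stated limit. The metal response element and protein motif searches were not run.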

Other observations

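The rows of SLC30A4, SLC39A8 and SLC39A14, and of SLC39A9 in the same family, stand in a run of 1387 genes at the end of the deposited table, after the last gene at 0 in every library. The run is alphabetical but for 5 genes. Within it 67.6% of genes were called in DP vs LL, 53.0% in LG vs LL and 63.7% in LG vs DP, against 17.9%, 13.6% and 7.99% of the other genes tested. How the run was made is not given in the sources used here, and its part in the levels of these genes was not tested.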
